A study of Homo sapiens with 16 samples.

Results

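The 10 genes described here mark the melanocyte lineage and its pigment. They are MITF, SOX10, PAX3, EDNRB, KIT, TYR, DCT, PMEL, MLANA and RAB27A, each taken by its symbol from the deposited table of A375 tumors, in which all 10 are among 23260 symbols. A375 is a human melanoma line with mutant BRAF, here grown on both flanks of NOG mice (NOD/Scid/IL2γR-/-), which have no functional lymphocytes. There were 16 tumors in 4 groups of 4, each group from 2 mice killed on day 5 of treatment by intraperitoneal injection. J+V tumors had JQ1 at 50 mg/kg daily with Vemurafenib at 25 mg/kg per dose, given 2 times a day. J tumors had JQ1 alone and V tumors Vemurafenib alone, at the same doses, and control tumors had vehicle. JQ1 blocks the BET bromodomain proteins, readers of acetylated histones, and Vemurafenib blocks mutant BRAF. All groups carry the same line, and no source used here gives the age of the mice. The 2 tumors of a mouse are not independent animals, and a tumor is named by its mouse and flank (33L, 33R).

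Melanocytes come from the neural crest. PAX3 and SOX10 switch on MITF, the master regulator of the lineage, and MITF in turn drives the genes of pigment synthesis and of the melanosome, the organelle in which pigment is made. Signals through the receptors KIT and EDNRB keep melanocyte precursors alive and moving. In melanoma, cells with much MITF tend to be pigmented, while cells with little tend to express AXL and other invasive genes.

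The table gives FPKM, in which fragments are divided by the length of the transcript and by the mapped fragments of the tumor, so levels of different genes are compared per length. On GRCh37, the build of the authors' mapping, GENCODE places MITF at chr3:69788607-70017487, SOX10 at chr22:38366693-38383429 and PAX3 at chr2:223064606-223163717. EDNRB lies at chr13:78469616-78549664, KIT at chr4:55523434-55606949 and TYR at chr11:88911043-89028927. DCT lies at chr13:95089065-95131936, PMEL at chr12:56347889-56367101, MLANA at chr9:5890889-5910606 and RAB27A at chr15:55495164-55611311. Several share their place with another gene on the opposite strand. POLR2F spans SOX10 and shares 5.39% of its exonic bases, CDK2 shares 2.42% of those of PMEL, and PIGB shares 1.36% of those of RAB27A. MLANA lies inside KIAA2026 with 0% of its exonic bases in exons of that gene. EDNRB shares 1.43% of its exonic bases with the noncoding gene OBI1-AS1 on the opposite strand. On the same strand, EDNRB shares 2.21% with another noncoding gene, and RAB27A shares 1.61% with PIGBOS1. No source used here says whether strand was used in counting, so reads of such pairs may not be fully separated. Strand cannot separate reads of genes on the same strand. A gene's FPKM also pools its transcript forms, so the melanocyte form of MITF is not told from the others.

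The genes fell into a group that was plainly expressed and a group near 0. In all 16 tumors EDNRB (8.76 to 27.04 FPKM), SOX10 (8.95 to 20.9), MITF (6.88 to 12.8), PAX3 (5.76 to 9.26), RAB27A (3.90 to 8.09) and MLANA (3.42 to 7.46) were above 1 FPKM. Each of these 6 overlapped its neighbours in this order over the 16 tumors. The other 4 were below 1 FPKM in all 16, with at most 0.305 for TYR, 0.216 for PMEL and 0.0982 for KIT, and DCT was listed at 0 in every tumor. No tumor's value lay between 0.305 and 3.42 FPKM for any of the 10. Of 12 genes that every cell uses, such as ACTB and TBP, none was at 0 in any tumor.

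**Figure D1:**
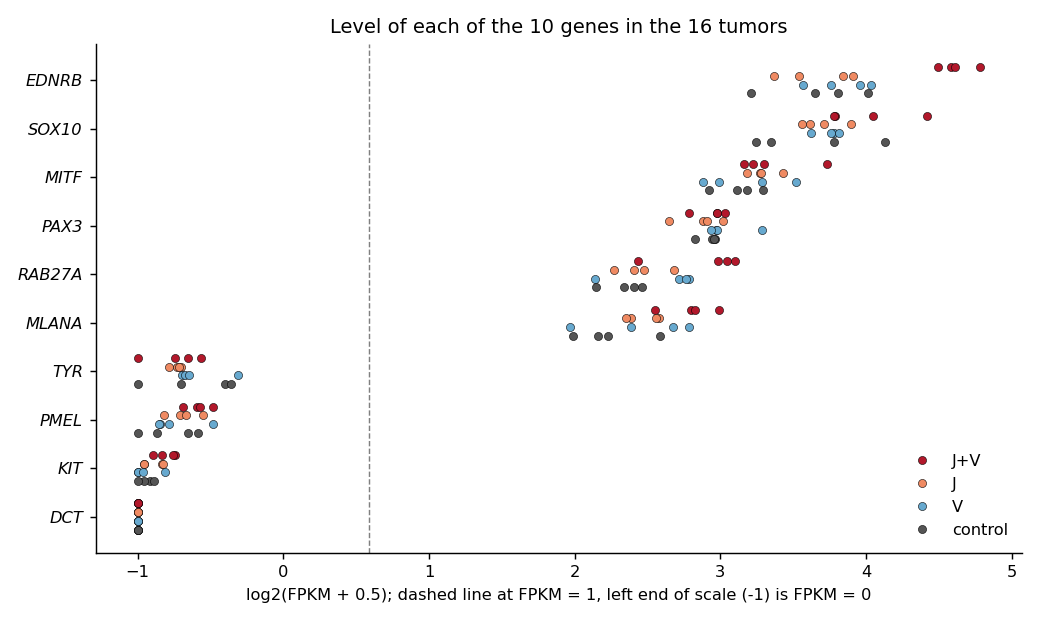
Level of each of the 10 genes as log2(FPKM + 0.5), 1 point per tumor, rows ordered by mean level and colors giving J+V, J, V and control. EDNRB, SOX10, MITF, PAX3, RAB27A and MLANA lie right of the dashed line at 1 FPKM in all 16 tumors, and TYR, PMEL, KIT and DCT left of it.

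The pigment enzymes near 0 are textbook MITF targets, and their promoters show the sequence that MITF reads, which is why they are printed here. MITF binds the letters CATGTG, best when a T precedes them (TCATGTG, the core of the M box). RefSeq windows of 300 bases (250 before and 50 after a gene's start, GRCh38.p14) were matched for 8 of the 10 genes, 16 windows in all, but not for SOX10 and PMEL. Searched on both strands, TCATGTG stood in windows of TYR and DCT, in that of the related enzyme gene TYRP1, and in 2.92% of all 35116 windows. CATGTG, which includes those matches, stood in these and in 1 of 2 EDNRB windows, and in 11.1% of all windows. The palindrome CACGTG, another form of the same box, was in none of the windows of these genes and in 7.26% of all. In the stretches below, which run 5′ to 3′ on the gene's strand, capitals mark the match, which for EDNRB is CATGTG read on the opposite strand, and the MLANA stretch, the last 87 bases before its start, holds none.
TYR, chr11:89177730-89177816, plus strand: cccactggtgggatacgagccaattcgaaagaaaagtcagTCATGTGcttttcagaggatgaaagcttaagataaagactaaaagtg
DCT, chr13:94479771-94479857, minus strand: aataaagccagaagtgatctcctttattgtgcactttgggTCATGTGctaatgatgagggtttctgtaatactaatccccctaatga
TYRP1, chr9:12693200-12693286, plus strand: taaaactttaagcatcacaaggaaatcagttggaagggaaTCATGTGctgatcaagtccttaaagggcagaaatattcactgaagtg
EDNRB, chr13:77919788-77919873, minus strand: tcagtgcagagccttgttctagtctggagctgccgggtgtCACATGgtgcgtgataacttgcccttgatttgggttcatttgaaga
MLANA, chr9:5890802-5890888, plus strand: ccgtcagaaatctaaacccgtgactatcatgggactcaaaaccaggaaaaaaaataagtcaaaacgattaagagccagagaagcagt
The matches in capitals begin 105 bases before the start of TYR, 135 before that of DCT, 145 before that of TYRP1 and 151 before that of EDNRB. The same windows held others outside these stretches, TCATGTG on the opposite strand 215 bases before the start of DCT, and CATGTG 12 bases before that of TYR and, on the opposite strand, 11 before that of TYRP1. A match of letters is a description and not a measured binding site.

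Groups were compared with limma on log2(FPKM + 0.5), over the 13426 genes that reached 1 FPKM in 4 tumors or more, with the mouse as a block. Fold changes below are differences on this scale, with standard errors (SE), and a gene was called when its Benjamini-Hochberg adjusted p over all fitted genes was below 0.05. The 6 expressed genes entered the fit, and none depended on 1 group to pass the filter. The 4 others did not enter it. Of these, KIT, TYR and PMEL were compared by exact permutation tests of single tumors, which take no account of the mouse. Nothing in the labels names separate cultures of the line, so the p-values measure the spread between these tumors, with 2 mice per group. The correlation of tumors of a mouse was estimated at -0.0674, so the block did not widen the standard errors, and more genes were called with it than without it. Without the block 4598 of all genes were called in J+V against control and 1461 in J+V against V. With the mean of each mouse as the unit, 3801 of all genes were called in J+V against control, compared with 4979 here. Against V the counts were 234 and 1786.

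In J+V against control, EDNRB, RAB27A and MLANA were higher, and MITF, SOX10 and PAX3 were not called. That is 3 of the 10 genes, or 3 of the 6 fitted, higher and 0 lower. Of all fitted genes 37.1% were called, 16.6% higher and 20.5% lower. The median difference of the 6 fitted genes was 0.47, beside -0.03 over all 13426 genes. In J against control and in V against control 0 of the 10 were called, as were 0% of all genes in each. At an unadjusted p below 0.05, limma gave 0 of the 6 in either comparison, against 1140 of all genes for J and 2160 for V. In J+V against J and in J+V against V, 1 of the 10, or 1 of the 6 fitted, was called higher in each, EDNRB. There 27% of all genes were called in J+V against J (8.67% higher) and 13.3% in J+V against V (4.99% higher). In J against V 0 of the 10 were called, beside 0.283% of all genes. The J+V comparisons share their J+V tumors, and those against control share the control tumors.

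**Figure D2:**
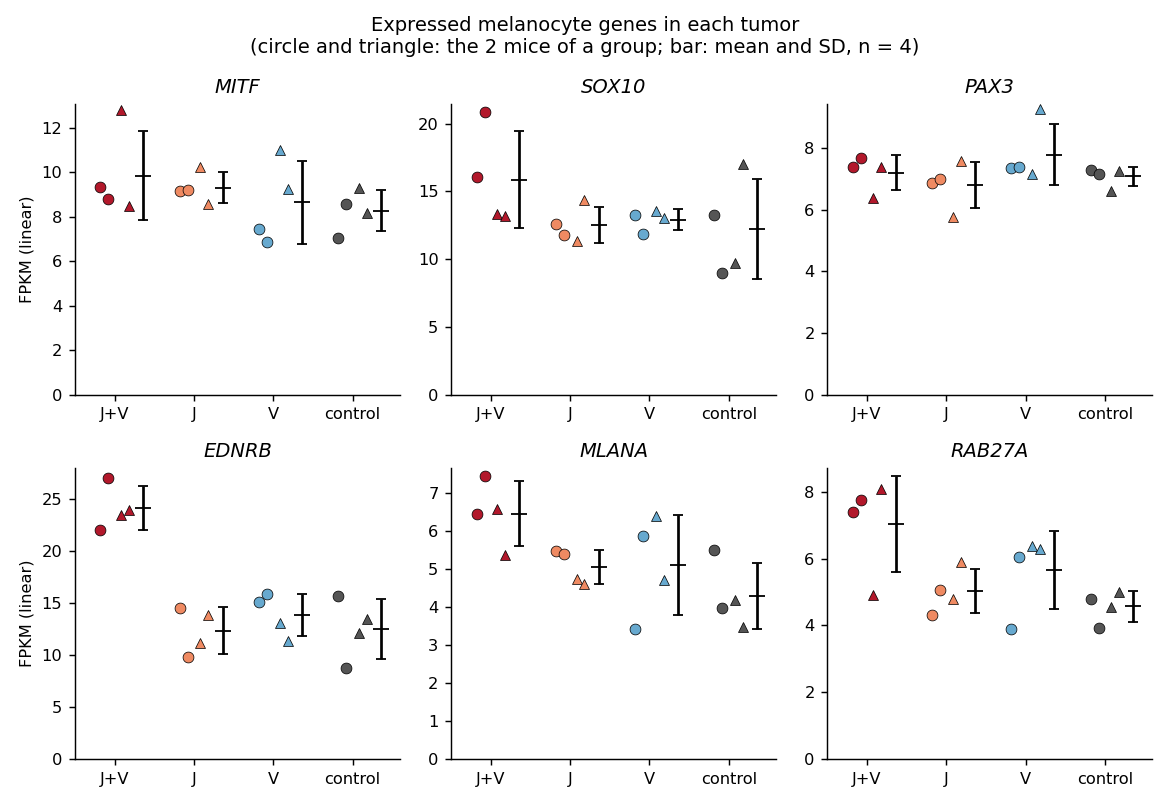
FPKM of the 6 expressed genes in each tumor (linear axis from 0), by group, with circles and triangles for the 2 mice of a group and a bar for the mean and SD (n = 4). EDNRB is the gene whose J+V tumors, at 22.0 to 27.04, all lie above the other 12, which reach 15.9.

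Among the factors, MITF itself, a basic helix-loop-helix transcription factor, overlapped between groups and was not called. Its FPKM were 9.34, 8.82, 12.8 and 8.47 in J+V tumors, 9.16, 9.19, 10.3 and 8.58 in J tumors, 7.45, 6.88, 10.98 and 9.26 in V tumors, and 7.06, 8.57, 9.28 and 8.16 in control tumors. All 4 groups overlapped, and the highest value was that of tumor 34L. The mean was 9.85 ± 1.99 in J+V tumors and 8.27 ± 0.929 in control tumors (SD, n = 4 each). The difference was 0.23 (SE 0.141, 95% interval -0.07 to 0.53, adjusted p = 0.218, limma), so a rise of about the size seen in MLANA lies just outside the interval and a smaller one cannot be told from none. J against control gave 0.16 (adjusted p = 0.827, limma) and V against control 0.04 (adjusted p = 0.915, limma).

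SOX10, the neural crest factor that sits above MITF, also overlapped between groups. It had 16.0, 20.9, 13.3 and 13.2 FPKM in J+V tumors, 12.6, 11.8, 11.3 and 14.4 in J tumors, 13.3, 11.8, 13.5 and 13.01 in V tumors, and 13.2, 8.95, 9.69 and 17.0 in control tumors. The high J+V tumors were those of mouse 33, and the high control tumor was 5R, above 3 of the 4 J+V tumors. The mean was 15.9 ± 3.58 in J+V tumors and 12.2 ± 3.697 in control tumors (SD, n = 4 each), a difference of 0.38 (SE 0.169, adjusted p = 0.0873, limma). Without tumor 5R it was 0.55 (adjusted p = 0.0121), without both tumors of mouse 5 it was 0.50 (adjusted p = 0.0441), and without mouse 34 it was 0.61 (adjusted p = 0.0234), in the same limma fit. Scaling to the upper quartile also gave a call (0.46, adjusted p = 0.0463, limma). The other 32 of 36 alternative settings gave no call, with adjusted p up to 0.542 in limma. With a tumor or mouse left out, the SOX10 difference ranged from 0.16 to 0.61. POLR2F, the gene on the other strand, was lower in J+V tumors, at 21.9 to 30.6 FPKM, against 33.5 to 43.5 in control tumors (-0.50, SE 0.142, adjusted p = 0.0127, limma; not called without mouse 5 or 33, at 0.0748 and 0.0670). Its share in the SOX10 values was not tested.

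PAX3, the paired box factor that acts with SOX10 on MITF, was not called either. Its FPKM were 7.37, 7.67, 6.38 and 7.38 in J+V tumors, 6.86, 6.996, 5.76 and 7.58 in J tumors, 7.34, 7.38, 7.16 and 9.26 in V tumors, and 7.29, 7.17, 6.60 and 7.24 in control tumors. All groups overlapped, with V tumor 19R above the rest. The J+V difference from control was 0.02 (SE 0.0928, 95% interval -0.18 to 0.22, adjusted p = 0.869, limma), and it was -0.18 (adjusted p = 0.122) when all tumors were scaled to a common sum.

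Of the receptors, EDNRB, which binds endothelins and guides melanocyte precursors, showed the clearest difference. It had 22.0, 27.04, 23.5 and 23.9 FPKM in J+V tumors, 14.5, 9.81, 11.1 and 13.9 in J tumors, 15.1, 15.9, 13.1 and 11.3 in V tumors, and 15.6, 8.76, 12.1 and 13.5 in control tumors. Every J+V tumor was above every other tumor, and the J, V and control tumors overlapped one another. The mean of J+V tumors, 24.1 ± 2.12, was 1.93 times that of control tumors, 12.5 ± 2.88 (SD, n = 4 each). On the log2 scale EDNRB was higher in J+V than in control tumors by 0.95 (SE 0.154, 95% interval 0.62 to 1.28, adjusted p = 0.000424, limma). Against J the difference was 0.95 (SE 0.154, adjusted p = 0.000785, limma) and against V 0.79 (SE 0.154, adjusted p = 0.00559, limma). The call against control held in all 36 alternative settings and against J in all 36, while that against V was lost without mouse 19 (0.62, adjusted p = 0.0780) and without mouse 33 (0.77, adjusted p = 0.05003).

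Neither drug alone moved EDNRB detectably. J against control gave -0.01 (SE 0.154, 95% interval -0.33 to 0.32, adjusted p = 0.998, limma) and V against control 0.16 (SE 0.154, 95% interval -0.17 to 0.49, adjusted p = 0.654, limma). Set against the sum of the J and V differences, J+V tumors departed by 0.79 (SE 0.218, 95% interval 0.33 to 1.26), with an unadjusted p of 0.0025 and an adjusted p of 0.157 in limma, so it did not pass the threshold. It was the 1 of the 6 genes with an unadjusted p below 0.05 in this comparison, as were 1693 of all genes, and 0% of all genes were called. The departures of the other 5 were between -0.04 for PAX3 and 0.19 for SOX10.

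EDN3 and EDNRA, both chosen after their values were seen, did not follow EDNRB. EDN3, its ligand in the skin, had 6.82, 5.51, 17.3 and 9.14 FPKM in J+V tumors and 12.4, 9.74, 7.76 and 19.9 in control tumors, which overlapped (-0.39, SE 0.319, adjusted p = 0.354, limma), and EDN3 was called without mouse 34 (-0.88, adjusted p = 0.0413) and had the opposite sign without mouse 33 (0.10, adjusted p = 0.853). EDNRA, the sister receptor best known from blood vessels, was lower in J+V tumors, at 5.65, 4.96, 5.16 and 6.59 FPKM, against 8.22, 9.13, 11.6 and 6.84 in control tumors (-0.62, SE 0.185, adjusted p = 0.0173, limma). The groups did not overlap for EDNRA, whose direction was opposite to that of EDNRB, and its call was lost without control tumor 5L (-0.48, adjusted p = 0.105), without mouse 33 (-0.55, adjusted p = 0.104) and with mouse means (adjusted p = 0.0565).

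KIT, the receptor for stem cell factor, was near 0 throughout. It had 0.0372, 0.0982, 0.0604 and 0.0911 FPKM in J+V tumors, 0.0147, 0.0613, 0.0648 and 0.0144 in J tumors, 0, 0.0707, 0 and 0.0138 in V tumors, and 0.0315, 0.0409, 0.0163 and 0 in control tumors. Of the J+V tumors, 33L lay below control tumor 2R and the others lay above every control tumor. The J+V difference from control was 0.13 (p = 0.0571, exact permutation test, two-sided, n = 4 tumors each, 70 splits, smallest possible p 0.0286). Exact tests of J and V against control gave p = 0.343 and p = 0.914. The reads behind these levels are unknown. KITLG, which encodes stem cell factor and was also chosen after its values were seen, was lower in J+V tumors, at 0.547, 0.843, 1.08 and 0.991 FPKM, against 1.59, 2.76, 2.44 and 0.977 in control tumors (-0.79, SE 0.203, adjusted p = 0.00742, limma). That call was lost without control tumor 5L (adjusted p = 0.0679) and without mouse 33 (adjusted p = 0.0778). Of the markers of mast cells, which also use KIT, TPSAB1, TPSB2 and FCER1A were at 0 in all tumors, and 5 of 6 mast cell markers were below 1 FPKM in all 16, with sums of 0.858 to 1.03 in J+V tumors and 0.478 to 0.855 in control tumors.

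The pigment enzymes were near 0. TYR, tyrosinase, which performs the first step of melanin synthesis, had 0.174, 0.0981, 0 and 0.134 FPKM in J+V tumors, 0.103, 0.113, 0.0803 and 0.108 in J tumors, 0.119, 0.127, 0.139 and 0.305 in V tumors, and 0.258, 0, 0.278 and 0.114 in control tumors. The J+V and control tumors overlapped, each with 1 tumor at 0 (difference -0.13, p = 0.543, exact permutation test, two-sided, n = 4 each). J against control gave p = 0.314 and V against control p = 0.714 by the same exact test. All 4 J tumors lay below the 4 V tumors, at levels near 0.

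DCT, dopachrome tautomerase, which acts further along the same pathway, was listed at 0 in all 16 tumors, so no test was made and no fold is given. TYRP1, the third enzyme of the family, had 0.365, 0.562, 0.353 and 0.184 FPKM in J+V tumors, 0.288, 0.247, 0.231 and 0.322 in J tumors, 0.516, 0.665, 0.422 and 0.526 in V tumors, and 0.337, 0.275, 0.262 and 0.273 in control tumors. It is not one of the 10 and was not tested. It stayed below 1 FPKM in all 16, with the 4 V tumors above the 4 control tumors.

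PMEL, the protein that forms the fibrils on which melanin is laid down, had 0.216, 0.164, 0.121 and 0.173 FPKM in J+V tumors, 0.0662, 0.181, 0.111 and 0.128 in J tumors, 0.0565, 0.0545, 0.0795 and 0.215 in V tumors, and 0.0471, 0.165, 0.134 and 0 in control tumors. The J+V and control tumors overlapped (difference 0.20, p = 0.171, exact permutation test, two-sided, n = 4 each). By the same exact test J against control gave p = 0.457 and V against control p = 0.8. The 9 exact tests of KIT, TYR and PMEL were not adjusted, and none reached 0.05. When no filter was applied and these genes entered limma, the J+V differences had adjusted p of 0.0733 for KIT, 0.518 for TYR and 0.154 for PMEL.

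**Figure D3:**
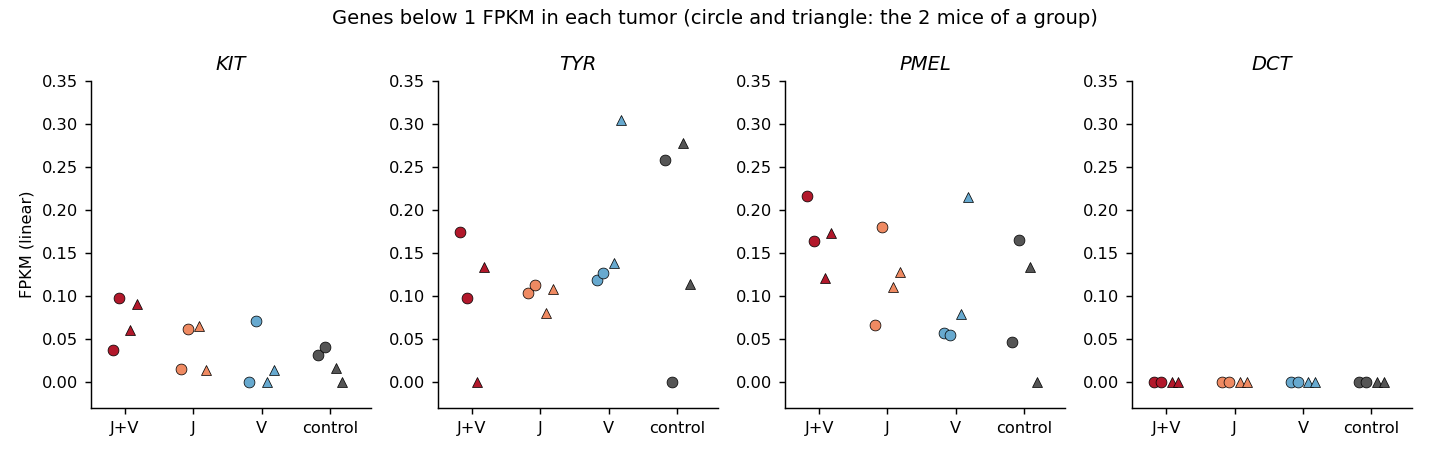
FPKM of KIT, TYR, PMEL and DCT in each tumor (linear axis), by group, with circles and triangles for the 2 mice of a group. All values are at or below 0.305, the TYR value of V tumor 19R, and DCT is at 0 in all 16 tumors.

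Unlike TYR, DCT and PMEL, MLANA was above 1 FPKM in all 16 tumors. It encodes a melanosome membrane protein also known as Melan-A and used to identify melanoma. It had 6.44, 7.46, 6.58 and 5.36 FPKM in J+V tumors, 5.47, 5.40, 4.73 and 4.61 in J tumors, 3.42, 5.87, 6.39 and 4.72 in V tumors, and 5.51, 3.97, 4.19 and 3.47 in control tumors. Of the J+V tumors 3 were above every control tumor, and 34R was below control tumor 2L. The J+V mean, 6.46 ± 0.859, was 1.51 times the control mean, 4.28 ± 0.869 (SD, n = 4 each), a difference of 0.55 (SE 0.159, 95% interval 0.21 to 0.89, adjusted p = 0.0143, limma). Differences from J (0.32, adjusted p = 0.145, limma) and from V (0.34, adjusted p = 0.167, limma) were not called, and neither were those of J (0.23, adjusted p = 0.765, limma) and V (0.21, adjusted p = 0.547, limma) from control. The call against control was lost when tumors were scaled to a common sum (0.34, adjusted p = 0.125), without control tumor 5L (0.56, adjusted p = 0.0621), without mouse 5 (0.42, adjusted p = 0.115) and without mouse 33 (0.45, adjusted p = 0.112). KIAA2026, the gene around MLANA on the other strand, was also higher in J+V tumors, at 20.0 ± 1.498 FPKM, against 15.2 ± 2.69 in control tumors (SD, n = 4 each; 0.40, SE 0.117, adjusted p = 0.0155, limma), a call lost with a common sum (adjusted p = 0.373), without mouse 33 (0.100034) and without mouse 5 (0.0838). Its part in the MLANA values was not tested.

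RAB27A, the small GTPase that ties the ripe melanosome to the cell's transport motors, rose by a like amount. It had 7.41, 7.74, 4.91 and 8.09 FPKM in J+V tumors, 4.32, 5.07, 4.8002 and 5.91 in J tumors, 3.90, 6.05, 6.37 and 6.29 in V tumors, and 4.79, 3.93, 4.56 and 5.01 in control tumors. The J+V tumors were above every control tumor except 34L, which lay below control tumor 5R. The J+V mean, 7.04 ± 1.45, was 1.54 times the control mean, 4.57 ± 0.467 (SD, n = 4 each), and the difference was 0.55 (SE 0.157, 95% interval 0.22 to 0.89, adjusted p = 0.0132, limma). Against J it was 0.43 (SE 0.157, adjusted p = 0.0538, limma), and without tumor 34L it was 0.58 and was called (adjusted p = 0.00806). Against V it was 0.29 (adjusted p = 0.229, limma). J and V differed from control by 0.12 (adjusted p = 0.901, limma) and 0.26 (adjusted p = 0.442, limma). The call against control was lost with scaling to a common sum (0.35, adjusted p = 0.0886), without control tumor 5L (0.55, adjusted p = 0.0656), without mouse 2 (0.49, adjusted p = 0.0581) and without mouse 33 (0.43, adjusted p = 0.120).

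**Figure D4:**
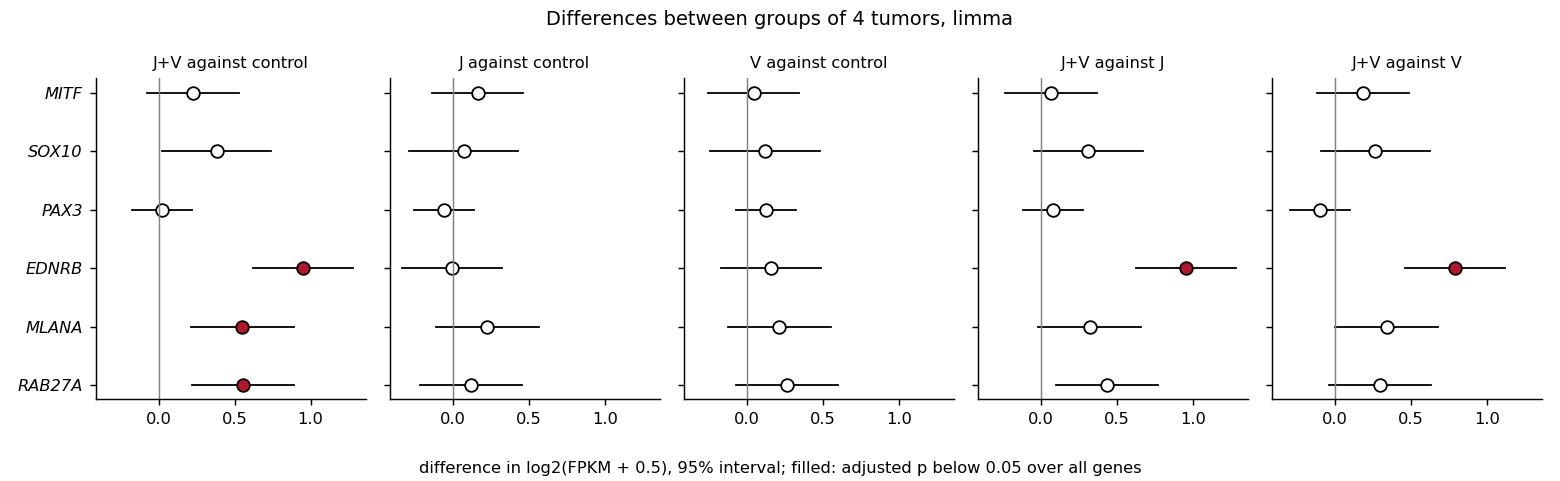
Differences of the 6 expressed genes in log2(FPKM + 0.5) with 95% intervals from limma, in 5 comparisons between groups of 4 tumors, filled where the adjusted p over all genes is below 0.05. EDNRB is filled in all 3 comparisons of J+V, at 0.95, 0.95 and 0.79, MLANA and RAB27A against control only, and no gene in J or V against control.

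The scale of the tumors bears on these small differences. With a common sum per tumor, the median difference of all genes between J+V and control tumors was -0.22 instead of -0.03, and 14.8% of the calls were higher, compared with 44.6% on the deposited scale. Scaling to the upper quartile gave 57.5%. On the common sum EDNRB was still called (0.73), and of the 10 genes it was the only one.

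The expressed genes did not vary together closely across the 16 tumors, which share their groups. Pearson's r, given as a description, was highest between SOX10 and EDNRB (0.68), and after subtracting the group means it was 0.54. MITF had an r of 0.36 with MLANA, -0.02 with SOX10 and 0.07 with RAB27A. After subtracting group means the r of MLANA with EDNRB was 0.17 instead of 0.60, and that of RAB27A with EDNRB 0.08 instead of 0.61.

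The fitted genes whose levels most resembled each of the 6 over the 16 tumors were other genes. They were picked as the highest r among the 13426 fitted genes with only 16 tumors. Such picking alone favors high values, and r was not tested. C4orf3, LSAMP and TBCEL came closest to EDNRB (r of 0.96, 0.95 and 0.94), and r stayed at 0.87, 0.90 and 0.78 after subtracting the group means. ABCA2, TGOLN2 and ACTA2 came closest to SOX10 (0.93, 0.92 and 0.92). ACTA2, smooth muscle actin, is also on the pericyte list below. DCAF10, PFN1P2 and ATP7A came closest to MLANA (0.94, 0.93 and 0.93), the last a copper transporter that supplies tyrosinase. ZBTB20, PLD1 and ZNF415 came closest to RAB27A (0.90, 0.89 and 0.89), RYBP, EXOC8 and ZNF217 to MITF (0.79, 0.77 and 0.76), and PPM1N, FBXO46 and LOC100505761 to PAX3 (0.75, 0.73 and 0.68).

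Wider lists place the 10 genes among others of the same biology, in J+V against control, where 16.6% of all genes were called higher and 20.5% lower. Of 20 further lineage regulators 16 were fitted, and 7 were higher and 2 lower, with a median difference of 0.25. LEF1, a nuclear partner of beta-catenin that acts on the MITF promoter, was higher (1.08, SE 0.201, adjusted p = 0.00103, limma), as were TFAP2B, an AP-2 factor (0.86, adjusted p = 0.0041, limma), and SOX5 (0.71, adjusted p = 0.000602, limma). SOX9, a SOX10 relative, was lower, at 2.98, 2.96, 7.14 and 4.31 FPKM in J+V tumors, against 8.29, 15.4, 13.2 and 13.1 in control tumors, groups that did not overlap (-1.47, SE 0.286, adjusted p = 0.00134, limma). SOX2 was lower in J+V than in V tumors (-0.71, adjusted p = 0.0329, limma), and CTNNB1, beta-catenin itself, differed by 0.02 from control (adjusted p = 0.809, limma).

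Of 15 further receptors, ligands and G proteins 12 were fitted, and 4 were higher and 3 lower, with a median of -0.09. HGF, the ligand of MET, was higher, at 21.1, 23.9, 40.8 and 28.9 FPKM in J+V tumors, against 9.32, 4.84, 7.68 and 6.77 in control tumors (1.92, SE 0.328, adjusted p = 0.000584, limma). ERBB3, a neuregulin receptor, was higher by 1.38 (adjusted p = 5.5e-05, limma), at 30.0 to 51.7 FPKM in J+V tumors, against 11.4 to 19.9 in control tumors. GNAQ and GNA11, which encode G proteins that couple endothelin receptors, went opposite ways, GNAQ by 0.52 (adjusted p = 0.000705, limma; 0.0634 with a common sum) and GNA11 by -0.80 (adjusted p = 0.00364, limma). MET differed from control by -0.83 (adjusted p = 0.0543, limma), was called in 7 of 36 alternative settings, among them without control tumor 5R (-1.12, adjusted p = 0.0113), and was lower in J+V than in J tumors (-1.11, adjusted p = 0.0198, limma).

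Of 21 further genes of pigment enzymes, melanosome proteins and transport only 11 were fitted, with 2 higher and 2 lower and a median of -0.04. MLPH, the linker between RAB27A and myosin Va, was lower (-0.94, SE 0.235, adjusted p = 0.00624, limma), at 1.19, 1.52, 2.55 and 1.68 FPKM in J+V tumors, against 2.25, 3.498, 4.36 and 5.33 in control tumors. Its direction was opposite to that of RAB27A, and the call was lost without mouse 33 (-0.70, adjusted p = 0.0849) and without mouse 5 (-0.60, adjusted p = 0.0905). RAB32, which brings enzymes to the melanosome, was lower (-0.89, adjusted p = 9.53e-05, limma), GPNMB, a melanosome glycoprotein, was higher by 0.39 (adjusted p = 0.0208, limma; adjusted p of 0.0514 to 0.314 with a common sum, with mouse means, and without tumor 34L, control tumor 5L or mouse 2, 33 or 34), and SYTL2, a RAB27A effector, was lower in J+V than in J tumors (-0.74, adjusted p = 0.0122, limma). MYO5A, myosin Va, differed from control by -0.02 (adjusted p = 0.899, limma), and CD63 by -0.04 (adjusted p = 0.817, limma). The 10 genes left out of the fit, named after their values were seen, were TYRP1, OCA2, SLC45A2, SLC24A5, GPR143, TRPM1, CAPN3, CITED1, MYRIP and TPCN2, with mean FPKM from 0.132 for MYRIP to 0.653 for SLC24A5.

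All 20 genes of the general machinery of melanosome and lysosome formation were fitted, and 2 were higher and 1 lower, with a median of 0.04. LYST was higher (0.69, adjusted p = 0.000237, limma), as was KIF13A (0.30, adjusted p = 0.00613, limma), and AP3D1 was lower (-0.33, adjusted p = 0.0165, limma). KIF13A lost its call with a common sum (0.09, adjusted p = 0.572), with mouse means (0.0531) and without mouse 33 (0.0549). AP3D1 lost it with upper quartile scaling (0.0502), only the groups compared (0.0674), and without tumor 34R (0.0559) or mouse 34 (0.145), while LYST kept it in all 36. In J+V against V, BLOC1S3 was lower (-0.37, adjusted p = 0.0454, limma) and HPS5 higher (0.32, adjusted p = 0.0475, limma). AP3S1 and AP3B1, the highest of the list, differed from control by -0.15 and 0.05 (adjusted p = 0.34 and 0.45, limma).

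Of 25 MITF targets outside pigment 21 were fitted, with 4 higher and 3 lower and a median of 0.04. CDK2, a cell cycle kinase that shares its locus with PMEL, was lower (-0.88, SE 0.104, adjusted p = 4.89e-05, limma), at 9.45, 9.55, 11.4 and 11.9 FPKM in J+V tumors, against 18.1, 22.4, 19.1 and 19.8 in control tumors. ST3GAL6, a sialyltransferase, was higher by 0.84 (adjusted p = 0.00395, limma; 0.0677 without mouse 33), and BCL2A1, a survival gene, was lower (-0.78, adjusted p = 0.0487, limma), a call lost in 24 of 36 alternative settings. TDRD7 was lower in J+V than in V tumors (-0.48, adjusted p = 0.0195, limma). HIF1A and IVNS1ABP, the highest of the list, differed from control by 0.07 and -0.03 (adjusted p = 0.52 and 0.805, limma).

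Of 12 genes known to be high in melanoma with little MITF, all were fitted, and 0 were called higher and 8 lower in J+V against control, with a median of -0.77. The count of lower calls was 5 without tumor 33L, 33R or control tumor 5L or without mouse 2, and 4 without mouse 33 or with mouse means. With a minimum mean FPKM of 5 it was also 5. That filter took list genes with lower means out of the fit, so this count is not of 12 fitted genes. Against J 8 were called lower, beside 18.4% of all genes, and against V 2, beside 8.31% of all genes. DKK1, a secreted Wnt inhibitor that represses MITF in skin, had 1.03, 1.16, 2.92 and 2.82 FPKM in J+V tumors, against 13.5, 18.6, 12.8 and 5.73 in control tumors (-2.40, SE 0.347, adjusted p = 0.000191, limma). FOSL1, an AP-1 subunit, had 8.01, 7.21, 19.4 and 13.1 FPKM in J+V tumors, against 34.9, 59.5, 39.4 and 31.8 in control tumors (-1.82, SE 0.281, adjusted p = 0.000299, limma). AXL, a receptor kinase, was lower as well (-1.39, SE 0.39, adjusted p = 0.0124, limma). The AXL call was lost in 4 of 36 settings (without control tumor 5L, mouse 2 or mouse 33, at 0.0644, 0.104 and 0.116, and with mouse means, at 0.0553), while DKK1 and FOSL1 kept theirs in all 36. For DKK1 and FOSL1 every J+V tumor was below every control tumor, while AXL overlapped, since J+V tumor 34L had 10.2 FPKM and control tumor 5R had 7.65. TGFBI, the most abundant of the 12, differed by 0.15 (adjusted p = 0.679, limma), and BIRC3 by 0.09 (adjusted p = 0.721, limma; named after its value was seen). MITF itself was not called in this comparison.

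**Figure D5:**
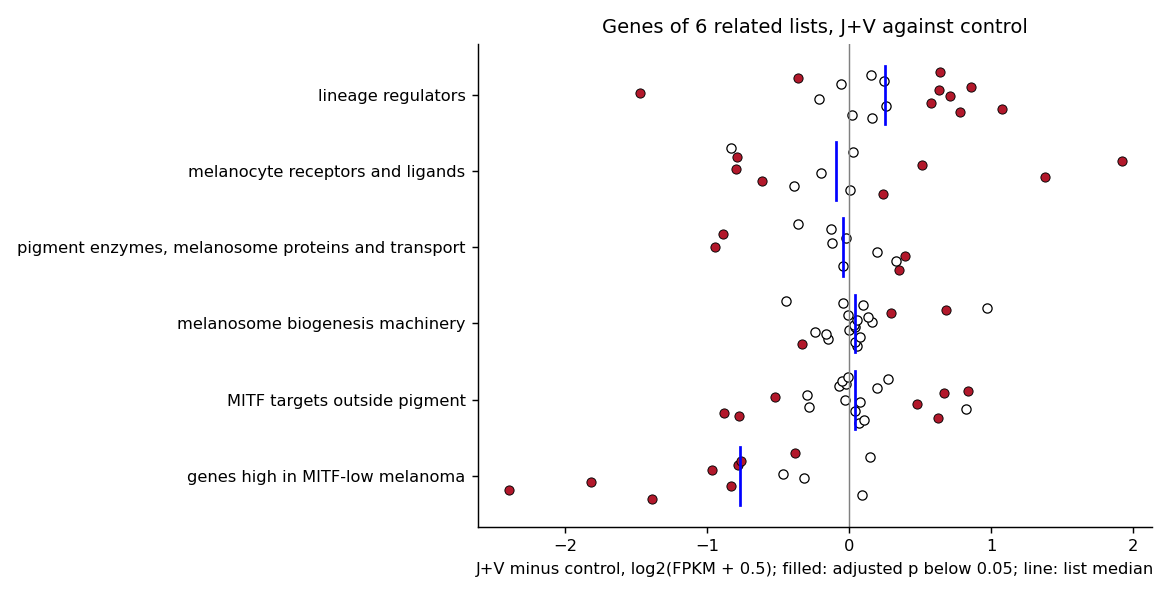
Difference of J+V from control tumors in log2(FPKM + 0.5) for each fitted gene of the 6 wider lists, filled where the adjusted p over all genes is below 0.05, with a line at the list's median. The bottom row, genes high in melanoma with little MITF, has its median at -0.77, and the medians of the other 5 lists lie between -0.09 and 0.25.

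The label of the line was checked against its markers. Of 9 melanocyte markers, SOX10, MITF, MLANA, S100B and S100A1 were at 1 FPKM or more in all 16 tumors, and PMEL, TYR, TYRP1 and DCT were below 1 in all 16. In tumor RNA, fewer cells of a type and less RNA per cell cannot be told apart. SOX10, EDNRB and RAB27A are also used by other cells, and genes that mark those moved in part with the groups. In these tumors all cells other than the A375 line are of the mouse, and reads were mapped to the human genome. Such cells could add to these values only through mouse reads counted on human genes. No source used here gives any removal of mouse reads. The sum of 6 Schwann cell markers was 268 to 314 in J+V tumors and 80.4 to 116 in control tumors. Of the 5 fitted, 3 were called higher in J+V against control and 0 lower, beside 16.6% and 20.5% of all genes. Among them were CDH19 and S100B (2.55 and 1.68, limma), while PMP22 was not called and NCAM1 was not fitted. Melanoma cells are known to express several of these markers. The sum of 6 pericyte markers was 33.0 to 60.2 in J+V tumors and 19.3 to 31.8 in control tumors. Of the 4 fitted, 3 were called higher, among them RGS5 (1.29) and PDGFRB (0.72), beside 16.6% of all genes. PDGFRB lost its call with a common sum, only the groups compared, and without control tumor 2R or 5L or mouse 2, 33 or 34 (adjusted p of 0.0533 to 0.180). The sum of 6 fibroblast markers was 42.5 to 89.0 in J+V tumors and 27.5 to 90.7 in control tumors. Of the 6, DCN and LUM were called higher (1.67, adjusted p = 0.0118, and 1.61, adjusted p = 0.000833, limma). That is 2 higher and 0 lower, beside 16.6% and 20.5% of all genes. LUM kept its call in all 36 settings, and DCN lost it with mouse means (adjusted p = 0.0589), without control tumor 5L (0.0541) and without mouse 2 (0.88, adjusted p = 0.139) or mouse 34 (0.0915). Markers of endothelial cells, which use EDNRB, summed to 1.02 to 1.97 in J+V tumors and 0.699 to 1.36 in control tumors, with 5 of 6 below 1 FPKM in all 16. The part of mouse reads from such cells in the EDNRB, SOX10, MLANA and RAB27A values was not tested.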

How the data were processed

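RNA of 16 tumors had been depleted of ribosomal RNA (RiboZero) and made into ScriptSeq v2 libraries. The authors mapped reads to hg19 with TopHat2 and deposited FPKM. The submitters' processing notes name bcl2fastq, TopHat and Cufflinks, and no source used here gives their versions, the annotation or any removal of mouse reads. Depth is unknown, so no counting intervals are given. The summed FPKM was 1223330 to 1406990 in J+V, 1191330 to 1287100 in J, 1033860 to 1383430 in V and 970443 to 1281010 in control tumors.

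The log2 of FPKM + 0.5 was fitted for the 13426 of 23260 genes with at least 1 FPKM in at least 4 tumors, in R 4.3.3 with limma 3.58.1 (group means, mouse as block with a correlation of -0.0674, variance trend, 12 residual degrees of freedom). Adjusted p are Benjamini-Hochberg over these genes, in 7 comparisons, and calls have an adjusted p below 0.05. The script was tested on simulated data. KIT, TYR and PMEL, below the filter, had exact two-sided permutation tests of tumors, with no term for the mouse.

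The 10 genes and all lists were chosen with earlier results of these data known. The text names all 10, TYRP1, and of each wider list up to 3 genes called in J+V against control by size, up to 2 called elsewhere and the 2 highest, with the 3 genes most like each fitted gene. EDN3, EDNRA, KITLG, S100B, CDH19, KIAA2026, POLR2F, BIRC3, DCN, LUM, PDGFRB and RGS5 were added after their values were seen. A few further list members are not reported here. Alternatives were pseudocounts of 0.1 and 1, no filter, a minimum mean FPKM of 5, a common sum (TPM), upper quartile and quantile scaling, no mouse block, mouse means, only the groups compared, a flank term, robust moderation, and leaving out each tumor or mouse. Gene positions came from the GENCODE v44 annotation on GRCh37, and promoter sequences from RefSeq (GRCh38.p14). Tables and plots used data.table (version 1.17.8), Python 3.11.15, pandas 2.3.3, numpy 2.4.6 and matplotlib 3.10.9.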

Additional observations from a re-analysis of the deposited data

Results flagged for a closer look

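In 4 of the 40 sets of 4 tumors examined (10 genes in 4 groups), 1 tumor stood apart from the other 3 by Dixon's ratio (gap to the nearest over the whole range). Chance flags about 1 in 20 groups, but the sets of DCT, at 0 in every tumor, could not be flagged. All 4 flagged sets were of V tumors. Tumor 19R had the highest PAX3 of its group (9.26 FPKM, ratio 0.893), the highest TYR (0.305 FPKM, ratio 0.894) and the highest PMEL (0.215 FPKM, ratio 0.844), where the TYR and PMEL levels are near 0. Tumor 16L had the lowest RAB27A (3.90 FPKM, ratio 0.87).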

How the results depend on the processing

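The results were computed in 36 alternative settings. For J+V against control 3 of the 10 genes were called, 1 with a common sum, and 1 to 4 when a tumor or mouse was left out (1 without control tumor 5L or mouse 33). For J+V against J the count was 1, and 2 with upper quartile or quantile scaling, only the groups compared, a flank term or robust moderation (1 to 2 with a tumor or mouse left out). For J+V against V it was 1, with 0 to 2 when a tumor or mouse was left out. It stayed at 0 for J and V against control, the departure and J against V in every setting run. The number of all genes called ranged from 2843 to 5546 for J+V against control, 1136 to 4632 against J, 234 to 2884 against V, 0 to 101 for J and 0 to 423 for V against control (both highest without 5R), 0 to 363 for the departure and 0 to 117 for J against V. Without the mouse block no call among the 10 genes changed. Of 66 gene results, 49 of 2372 values had the opposite sign, and 0 of these were called in either fit. With a common sum PAX3 was -0.18, AP3B1 -0.16, BIRC3 -0.11, CTNNB1 -0.19, HIF1A -0.14, HPS5 -0.073 and TGFBI -0.071 against control, and MITF -0.0039 against J. With upper quartile and quantile scaling CD63 was 0.036 and 0.13, IVNS1ABP 0.052 and 0.10, MYO5A 0.052 and 0.034, and TDRD7 0.020 with upper quartile. With a tumor or mouse left out the ranges against control were -0.039 to 0.083 for PAX3, -0.31 to 0.016 for AP3S1, -0.18 to 0.36 for BIRC3, -0.19 to 0.10 for CD63, -0.059 to 0.10 for CTNNB1, -0.88 to 0.10 for EDN3, -0.0040 to 0.15 for HIF1A, -0.018 to 0.29 for HPS5, -0.091 to 0.040 for IVNS1ABP, -0.19 to 0.14 for MYO5A, -0.29 to 0.18 for TDRD7 and -0.13 to 0.44 for TGFBI, and for MITF -0.059 to 0.16 against J and -0.050 to 0.42 against V. Counts called in the wider lists ranged over the settings from 4 to 8 higher and 1 to 3 lower for the regulators, 2 to 4 and 1 to 5 for receptors and ligands, 0 to 3 and 1 to 3 for pigment and transport, 1 to 3 and 0 to 4 for biogenesis, 1 to 6 and 1 to 5 for the other MITF targets, and 0 higher and 4 to 9 lower for genes of melanoma with little MITF. A fit of only the groups compared was not run for the departure, which uses all groups. The causes were not tested beyond what each setting changes. The unknown depth limits what can be said of KIT, TYR, PMEL and DCT. No pairing between treatments was possible because each mouse had 1 treatment, and the replicate numbers only name tumors.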
